A study of Mus musculus with 9 samples.

Results

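The collagen gene family was followed in mouse (Mus musculus) jejunum, the middle stretch of the small intestine, as bulk RNA from whole tissue. Members were the rows of the count table whose symbol has the form Col, a number, a, a number, such as Col3a1. This gave 44 of the 21868 genes in the table. Of these, 34 had enough reads to be tested and 10 did not. The 3 groups were mice given TPN, starved mice and sham-treated mice, each sampled after 24 h, with 3 libraries per group. TPN, total parenteral nutrition, is the infusion of nutrients into a vein, starvation is the withholding of food, and what the sham procedure consisted of is not given in the sources used here. Strain, sex and age are not given either. A piece of jejunum 5 cm long was cut open along its length, so each library can hold epithelium, stroma, muscle and the outer lining. Replicates are labelled biological, without a statement of 1 animal per library, so the p-values describe the spread between these 9 libraries, part of which may be technical.

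Collagens are triple-helical proteins of the extracellular matrix, each molecule built of 3 chains that may come from different genes. Fibrillar collagens such as types I, III and V assemble into the banded fibrils that give the gut wall its tensile strength, and they are made mostly by fibroblasts and smooth muscle cells. Type IV collagen forms the sheet-like network of basement membranes under the epithelium and around vessels and muscle cells. Other classes decorate or anchor these structures. Type VI collagen makes beaded filaments near cells, the fibril-associated collagens (FACITs) sit on fibril surfaces, the multiplexins, types XV and XVIII, lie in basement membrane zones, and type VII forms anchoring fibrils.

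Total counts per library ran from 7779877 to 12084278, so 1 read was worth 0.0798 to 0.119 CPM (reads relative to the library total, which was scaled by TMM factors). Collagen genes together took 0.0210% to 0.108% of the counts, and 37 to 42 members had at least 1 read in a library. The 10 enterocyte markers were all detected in every library, and 3 of them fell in TPN against sham, where 5.12% of all genes fell. The 10 pancreatic acinar markers summed to 326.9, 17760 and 16.74 CPM in TPN libraries and 2390, 19.32 and 23.6 CPM in starvation libraries, against 3466, 18.67 and 17.83 CPM in sham libraries, with 0 called. Sham replicate 2 and starvation replicate 3 stood apart. The 15 smooth muscle markers, all detected in every library, summed to 569.5 to 1584 CPM in TPN libraries and 906.1 to 1703 CPM in starvation libraries, against 1410, 11850 and 1527 CPM in sham replicates 1 to 3. The 12 fibroblast markers summed to 250.5 to 286.7 CPM in TPN libraries and 236.3 to 258.4 CPM in starvation libraries, against 300.6, 708.5 and 300 CPM in sham replicates 1 to 3. Of these markers only Pi16 was at 0, in TPN replicates 1 and 2 and starvation replicates 1 and 2. Sham replicate 2 also had the highest pericyte sum, 2240 CPM, against 215.6 to 592.9 CPM in the other 8 libraries, with Higd1b at 0 in 7 of the 9. Of that sum 2057 CPM were Rgs5, while Notch3 was lowest in this library, at 2.45 CPM, and Pdgfrb was at 10.6 CPM, against 30.8 and 26.1 CPM in the other sham libraries. Most of the mesothelium sum was the keratin gene Krt8, also expressed in epithelium, and the other 7 mesothelium markers summed to 597.8 CPM in sham replicate 2, against 7.75 to 126.1 CPM in the other 8 libraries. These 4 markers were named after their values were seen. Starvation replicate 3 had 92880 CPM of enterocyte markers, against 24600 and 35560 CPM in the other starvation libraries, and 117.8 CPM of the 12 endothelial markers, against 325.0 and 308.1 CPM. In whole tissue, fewer cells of a type and less RNA per cell cannot be told apart.

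In TPN against sham, the genes for types I and III, Col5a2 of type V, the 3 main type VI genes, Col14a1 and Col18a1 fell, and 0 type IV genes passed the test. Over the family 9 of 34 tested members fell and 0 rose by edgeR's quasi-likelihood test at a Benjamini-Hochberg adjusted p under 0.05. The background was 5.12% of all 14668 tested genes lower and 3.48% higher. By class, 4 of 9 tested fibrillar genes fell, 0 of 6 type IV genes and 5 of the 19 others. Depth limits the type IV count, since Col4a3, Col4a4, Col4a5 and Col4a6 had 248, 208, 250 and 172 reads over the 9 libraries. Col4a1 and Col4a2 had 4375 and 4818 reads. Some fibrillar genes had few reads too, with 83 for Col11a2, 108 for Col24a1 and 175 for Col5a3. The median log2 fold change was -1.17 for fibrillar, -0.23 for type IV and -0.60 for other collagens, against -0.02 for all tested genes. No overlap between the groups was found with TPN lower for 15 of 34 members, against 21.4% of all genes, and with TPN higher for 5, against 21.3%.

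In starvation against sham, 4 members fell and 0 rose, where 1.14% of all genes fell and 2.55% rose. Those that fell were Col3a1, Col1a1, Col14a1 and Col18a1, each also called in TPN against sham. These 4 calls were made in the fit that also held the TPN libraries. Fitted to the starvation and sham libraries alone, the calls of Col3a1 (-2.19), Col1a1 (-1.76), Col14a1 (-1.75) and Col18a1 (-0.91) ended, with quasi-likelihood adjusted p of 0.0998, 0.153, 0.133 and 0.106, and 2 of all genes were called. The comparisons share the 3 sham libraries, so a sham library that is high moves both. The class medians were -1.16 for fibrillar, -0.19 for type IV and -0.64 for other collagens, against -0.01 for all tested genes. Of the type IV genes, Col4a1, Col4a2 and Col4a5 were at -0.81, -0.89 and -0.72. Col4a3, Col4a4 and Col4a6, with few reads, were at 0.84, 0.35 and 0.53. Starvation was lower with no overlap for 12 of 34 members, against 11.2% of all genes, and higher for 3, against 13.9%. Between TPN and starvation the quasi-likelihood test called 0 members, where 3.90% of all genes were lower and 1.94% higher in TPN. An unadjusted p under 0.05 was found for 6 of the 34 members, against 23.1% of all genes, and DESeq2 called 1 member lower, Col4a4, against 7.49% of all genes.

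**Figure D1:**
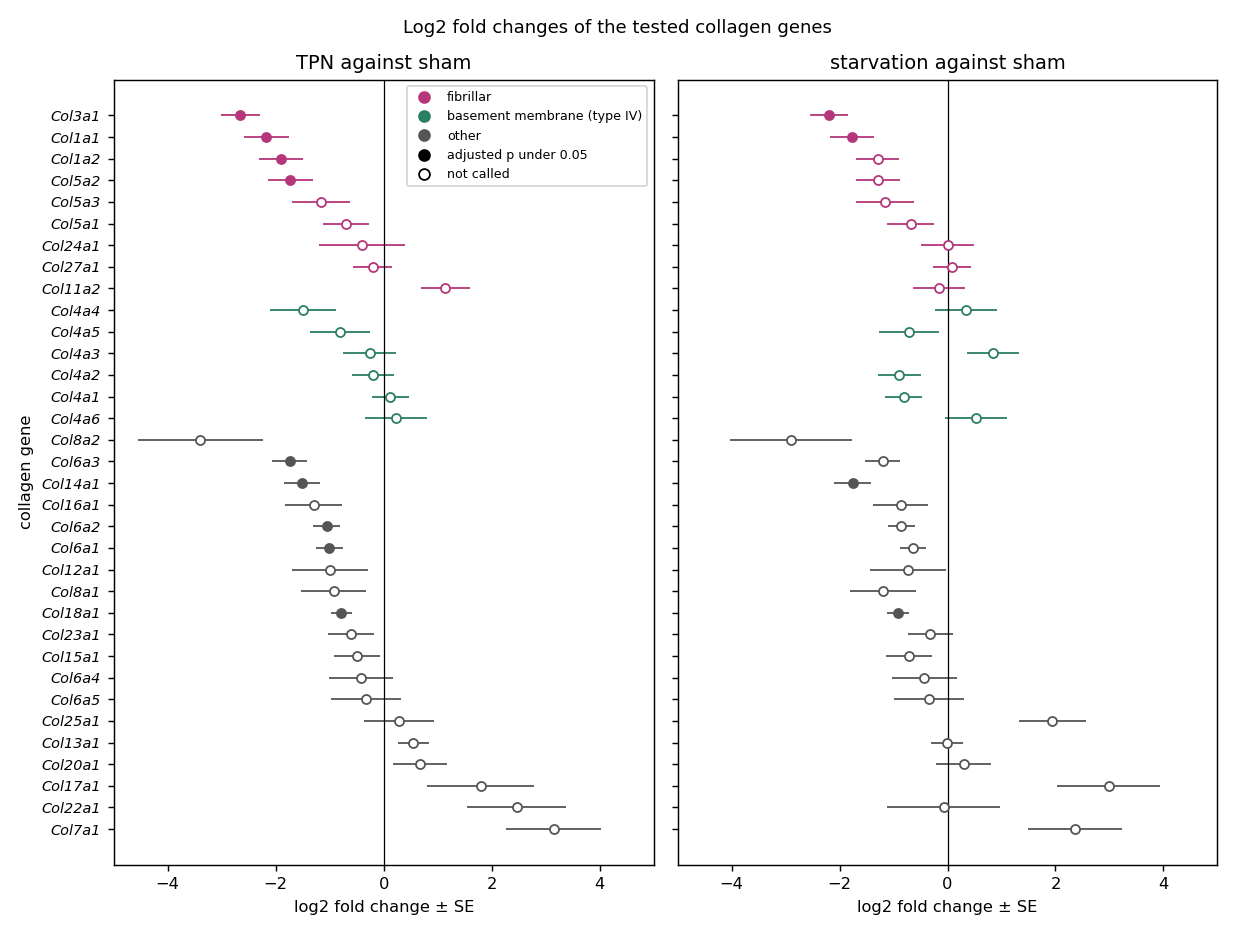
Log2 fold change with its SE (horizontal axis) for the 34 tested collagen genes (rows), in TPN against sham on the left and starvation against sham on the right, filled where the adjusted p was under 0.05. Col3a1 lay at -2.66 and -2.20, while Col4a1 lay at 0.12 and -0.81 and was called in neither.

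The major fibrillar genes gave the largest called falls. Col3a1 (chr1:45311538-45349706, plus strand, GRCm38) encodes the chain of type III collagen, a fibril component of distensible tissues such as the gut wall. It had 17.7, 19.4 and 24.9 CPM in TPN libraries and 30.6, 34.8 and 19.9 CPM in starvation libraries, against 86.0, 209.8 and 96.05 CPM in sham libraries. Every TPN and starvation library lay below every sham library, and sham replicate 2 was the highest. Its level averaged 20.7 ± 3.75 CPM in TPN, 28.5 ± 7.70 CPM in starvation and 130.6 ± 68.7 CPM in sham (SD, n = 3 each), resting on 689, 886 and 3995 reads. The log2 fold change was -2.66 ± 0.36 in TPN against sham (± SE, quasi-likelihood adjusted p = 0.00424) and -2.20 ± 0.36 in starvation against sham (quasi-likelihood adjusted p = 0.0193). Col3a1 stayed called in both without sham replicate 2, at -2.14 ± 0.24 and -1.68 ± 0.24. Among 9 fits that each left out 1 library, Col3a1 was called in 9 in TPN against sham (-2.88 to -2.14) and in 7 in starvation against sham (-2.42 to -1.68). The 2 that lost it left out starvation replicate 2 and sham replicate 3.

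Col1a1 (chr11:94936224-94953042, plus strand) and Col1a2 (chr6:4504814-4541544, plus strand) encode the chains of type I collagen, the main fibril-former of connective tissue. Col1a1 had 25.5, 32.9 and 29.0 CPM in TPN libraries and 60.7, 37.6 and 17.6 CPM in starvation libraries, against 94.0, 188.5 and 112.1 CPM in sham libraries. Col1a2 had 13.0 CPM in each TPN library and 27.0, 22.4 and 9.84 CPM in starvation libraries, against 36.4, 76.2 and 33.5 CPM in sham libraries. Neither gene overlapped between a nutritional group and sham. Both fell in TPN, with log2 fold changes of -2.18 ± 0.41 for Col1a1 and -1.90 ± 0.40 for Col1a2 (quasi-likelihood adjusted p = 0.0154 and 0.0225). In starvation against sham Col1a1 was at -1.76 ± 0.41 (quasi-likelihood adjusted p = 0.0474), called in 2 of the 9 fits that left out 1 library (without starvation replicate 1 or 3), while Col1a2 was at -1.30 ± 0.39 (quasi-likelihood adjusted p = 0.0965) and not called. Without sham replicate 2 both stayed called in TPN against sham, at -1.83 and -1.43, and Col1a1 lost its call in starvation against sham, at -1.41. Without any 1 of the TPN libraries both lost their call in TPN against sham.

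Type V collagen chains co-assemble with type I and limit fibril diameter. Col5a2 (chr1:45374321-45503282, minus strand) lies 24614 bp from Col3a1, tail to tail. It had 3.13, 2.27 and 2.72 CPM in TPN libraries and 5.27, 3.80 and 1.97 CPM in starvation libraries, against 6.09, 12.8 and 8.33 CPM in sham libraries. It fell in TPN (-1.73 ± 0.42, quasi-likelihood adjusted p = 0.0369) and was not called in starvation (-1.29 ± 0.41, quasi-likelihood adjusted p = 0.109). Col5a2 was at -1.41 in TPN without sham replicate 2 and no longer called (quasi-likelihood adjusted p = 0.0817). It kept its call in 3 of the 9 fits that left out 1 library, those without sham replicate 1, starvation replicate 1 or starvation replicate 3 (-1.95 to -1.41 over all 9). Its partner Col5a1 had 11.5, 13.5 and 12.8 CPM in TPN libraries and 20.7, 13.0 and 4.17 CPM in starvation libraries, against 20.1, 20.1 and 20.9 CPM in sham libraries. Col5a1 did not overlap between TPN and sham, spread widely over the starvation libraries and was called in neither comparison (-0.70 ± 0.43 and -0.68 ± 0.43). Fitted to the TPN and sham libraries alone, Col5a1 was called lower, where 1644 of 14299 genes were lower. The same held without starvation replicate 3, and without it and sham replicate 2 together, where 11.4% and 14.8% of all genes were lower. Col27a1, a fibrillar chain best known from cartilage, had 4.0 to 5.77 CPM in TPN and 3.70 to 7.58 CPM in starvation, against 4.32 to 7.26 CPM in sham, and its groups overlapped (-0.20 ± 0.36 in TPN and 0.09 ± 0.36 in starvation). The fibrillar genes not tested were Col2a1 and Col11a1, both best known from cartilage.

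**Figure D2:**
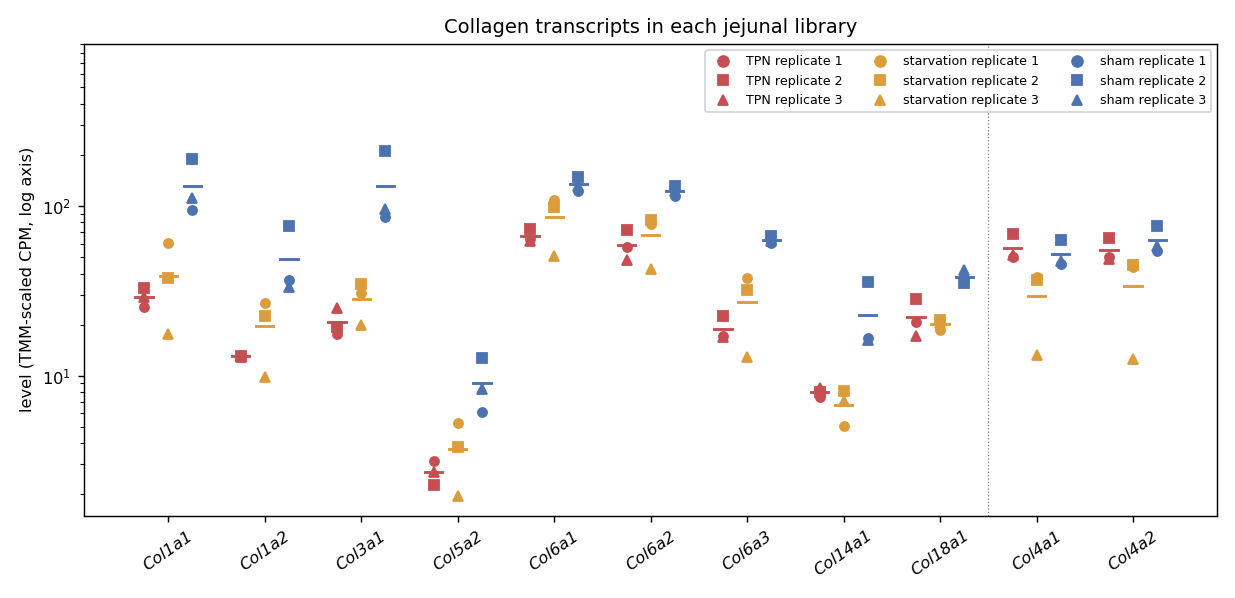
Level of 11 collagen genes in each of the 9 libraries (TMM-scaled CPM, log axis), with TPN, starvation and sham from left to right, shapes for replicates and bars for group means. The 9 genes left of the dotted line fell in TPN against sham, while the type IV genes Col4a1 and Col4a2 to its right overlapped between TPN and sham.

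Of the 6 type IV genes 0 were called in any comparison by the quasi-likelihood test on all 9 libraries with TMM factors. Col4a1 (chr8:11198423-11312826, minus strand) and Col4a2 (chr8:11312805-11449287, plus strand) encode the chains of the common basement membrane network and lie head to head, their annotated ends overlapping by 22 bp. Strand handling in the counting is not stated, so reads in those bases may count for either gene. Col4a1 had 49.9, 67.9 and 51.3 CPM in TPN libraries and 38.1, 36.8 and 13.2 CPM in starvation libraries, against 45.3, 63.0 and 47.2 CPM in sham libraries. TPN and sham overlapped, and every starvation library lay below every TPN and sham library. The log2 fold change was 0.12 ± 0.34 in TPN against sham and -0.81 ± 0.35 in starvation against sham (quasi-likelihood adjusted p = 0.849 and 0.194). In TPN against starvation Col4a1 was at 0.94 ± 0.35 (quasi-likelihood adjusted p = 0.145).

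Col4a2 had 50.1, 65.1 and 49.0 CPM in TPN libraries and 44.0, 45.1 and 12.5 CPM in starvation libraries, against 54.6, 76.4 and 57.8 CPM in sham libraries. Every starvation library was again below every TPN and sham library, while TPN averaged a little below sham, unlike for Col4a1. Its log2 fold changes were -0.20 ± 0.39 in TPN and -0.89 ± 0.39 in starvation against sham (quasi-likelihood adjusted p = 0.773 and 0.210). Both genes were lowest in starvation replicate 3, the library that was also lowest in endothelial markers, whose part in these values was not tested. Without that library and sham replicate 2 together, Col4a1 was higher in TPN than in starvation (0.62, quasi-likelihood adjusted p = 0.0125), while Col4a3 (-1.38) and Col4a4 (-1.75) were lower, where 10.1% of all genes were higher and 11.5% lower. Col4a5, a chain of another type IV network, had 1.48, 3.93 and 0.961 CPM in TPN libraries and 3.03, 2.43 and 1.16 CPM in starvation libraries, against 4.52, 2.99 and 3.50 CPM in sham libraries, and was not called. Col4a4, singled out after its values were seen, had 0.907, 0.954 and 0.881 CPM in TPN libraries, from 11, 8 and 11 reads. It had 2.87, 3.48 and 3.59 CPM in starvation libraries and 1.08, 5.44 and 1.33 CPM in sham libraries. Its fold change between TPN and starvation was -1.85 ± 0.61 (quasi-likelihood adjusted p = 0.113), and -1.84 ± 0.34 without sham replicate 2, where it was called (quasi-likelihood adjusted p = 0.0172) and where 5.24% of all genes were lower in TPN. Sham is not part of this comparison, and leaving out its high library changed the SE and not the estimate. With only the TPN and starvation libraries fitted, Col4a4 was called lower too, where 295 of 14427 genes were lower. In starvation against sham it was called higher without sham replicate 2 and starvation replicate 3 together, where 1612 of 14855 genes were higher.

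Type VI collagen is made by fibroblasts and other stromal cells. Col6a1 (chr10:76708792-76726168, minus strand) and Col6a2 (chr10:76595762-76623630, minus strand) ranked 1 and 2 within the family in TPN, starvation and sham by CPM per kilobase of transcript. By the length of all exons joined, Col6a2 was number 3 in sham and Col1a1 number 2. Col6a1 had 64.0, 73.6 and 62.5 CPM in TPN libraries and 107.9, 99.2 and 51.0 CPM in starvation libraries, against 122.9, 149.0 and 131.3 CPM in sham libraries. Col6a2 had 57.6, 71.9 and 48.0 CPM in TPN libraries and 77.9, 83.0 and 42.8 CPM in starvation libraries, against 115.1, 131.0 and 122.3 CPM in sham libraries. For both, every sham library exceeded every TPN and starvation library, and sham replicate 2 stood only a little above its group. Both fell in TPN (-1.01 ± 0.25 for Col6a1 and -1.06 ± 0.25 for Col6a2, quasi-likelihood adjusted p = 0.0386 and 0.0331) and neither was called in starvation (-0.64 ± 0.25 and -0.85 ± 0.25). Without sham replicate 2 the estimates in TPN were -0.93 and -1.01, and neither was called (quasi-likelihood adjusted p = 0.0830 and 0.0670). Leaving out any 1 TPN or sham library ended both calls, with estimates of -1.09 to -0.93 for Col6a1 and -1.22 to -0.92 for Col6a2 over the 9 fits, and Col6a1 was also lost without starvation replicate 2.

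Col6a3 (chr1:90765923-90843971, minus strand), the longest of the main type VI chains, had 17.2, 22.4 and 16.9 CPM in TPN libraries and 37.4, 31.8 and 12.8 CPM in starvation libraries, against 60.7, 66.3 and 61.9 CPM in sham libraries. The sham libraries lay close together and above all others. It fell in TPN (-1.74 ± 0.33, quasi-likelihood adjusted p = 0.0149), also without sham replicate 2 (-1.71), and was not called in starvation (-1.20 ± 0.32, quasi-likelihood adjusted p = 0.0725). Without starvation replicate 3, Col6a3 was called in starvation against sham as well (-0.89, quasi-likelihood adjusted p = 0.0136), and in TPN against starvation (-0.83, quasi-likelihood adjusted p = 0.0160), where 3.97% of all genes were lower. Leaving out any 1 TPN library ended its call in TPN against sham, with estimates of -1.88 to -1.67 over the 9 fits that left out 1 library. Per length, Col6a3 stood at 0.109, 0.124 and 0.11 of the Col6a1 level in TPN libraries and 0.141, 0.130 and 0.102 in starvation libraries, against 0.20, 0.180 and 0.191 in sham libraries. The 3 sham ratios exceeded the other 6.

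Among the remaining classes, Col14a1 and Col18a1 fell in both comparisons. Col14a1 (chr15:55307750-55520803, plus strand), a FACIT on the surface of type I fibrils, had 7.50, 7.99 and 8.49 CPM in TPN libraries and 5.03, 8.13 and 7.06 CPM in starvation libraries, against 16.6, 35.5 and 16.2 CPM in sham libraries. It was at -1.51 ± 0.33 in TPN and -1.76 ± 0.34 in starvation (quasi-likelihood adjusted p = 0.0268 and 0.0303). Col14a1 stayed called in both without sham replicate 2, at -1.04 and -1.29. Leaving out any 1 TPN library ended its call in TPN (-1.70 to -1.04 over the 9 fits), and in starvation Col14a1 was called in 3 of the 9 fits (-1.95 to -1.29), namely when starvation replicate 3 or either of sham replicates 1 and 2 was left out.

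Col18a1 (chr10:77052178-77166548, minus strand), the source of endostatin and a basement membrane proteoglycan core, had 20.7, 28.5 and 17.1 CPM in TPN libraries and 18.7, 21.3 and 20.5 CPM in starvation libraries, against 37.1, 35.3 and 41.8 CPM in sham libraries. Here sham replicate 2 was the lowest of its group and the groups did not overlap. The fold changes were -0.79 ± 0.20 in TPN and -0.92 ± 0.20 in starvation (quasi-likelihood adjusted p = 0.0393 and 0.0387). Without sham replicate 2 they were -0.84 and -0.97 and not called (quasi-likelihood adjusted p = 0.0522 and 0.0615). Of the 9 fits that left out 1 library Col18a1 was called in 3 in TPN (without TPN replicate 2, starvation replicate 1 or starvation replicate 3) and in 2 in starvation (without TPN replicate 2 or starvation replicate 3), with estimates of -1.01 to -0.63 and -0.97 to -0.84. The other multiplexin, Col15a1, had 14.4, 13.4 and 10.4 CPM in TPN libraries and 14.8, 12.9 and 4.98 CPM in starvation libraries, against 22.3, 9.60 and 21.7 CPM in sham libraries, was lowest within sham in replicate 2 and was not called.

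Of the members with higher values than in sham, 0 were called by the quasi-likelihood test on all 9 libraries with TMM factors. Col7a1, the anchoring fibril collagen of epithelial basement membranes, had 2.31, 11.1 and 1.28 CPM in TPN libraries and 3.27, 1.16 and 3.93 CPM in starvation libraries, against 0.687, 0.320 and 0.583 CPM in sham libraries, resting on 137, 86 and 17 reads. All 6 TPN and starvation libraries exceeded the sham libraries, and TPN replicate 2, the library highest in acinar markers, was far above the rest. The part of those cells in the Col7a1 values was not tested. Col7a1 missed the threshold in TPN (3.15 ± 0.88, quasi-likelihood adjusted p = 0.0560) and in starvation (2.36 ± 0.87, quasi-likelihood adjusted p = 0.149). In TPN it was called higher with DESeq2, where 1035 of 14668 genes were higher, and with upper quartile factors, where 702 were. The same held with library totals and without starvation replicate 3, where 4.44% and 9.88% of all genes were higher. Col17a1, a transmembrane collagen of hemidesmosomes, had 0.824, 1.19 and 0.481 CPM in TPN libraries and 3.67, 1.16 and 0.694 CPM in starvation libraries, against 0.491, 0.213 and 0 CPM in sham libraries. TPN and sham overlapped, and with 26, 63 and 7 reads in TPN, starvation and sham, Col17a1 was not called (1.80 ± 0.99 and 2.98 ± 0.96). DESeq2 called Col7a1, Col17a1 and Col25a1 higher in starvation, where 997 of 14668 genes were higher. Col17a1 was also called higher there without sham replicate 2 and starvation replicate 3 together, where 1612 of 14855 genes were higher. Others were named for lying above sham in every library of a group. In TPN these were the FACIT genes Col22a1 (2.46 ± 0.92, 41 reads in TPN and 7 in sham) and Col20a1 (0.68 ± 0.50, 133 and 83 reads). The fibrillar gene Col11a2 (1.14 ± 0.45, 46 and 20 reads) and the transmembrane collagen gene Col13a1 (0.55 ± 0.29, 252 and 164 reads) were the others in TPN. In starvation it was the transmembrane collagen gene Col25a1 (1.94 ± 0.63, 76 reads in starvation and 20 in sham). Col12a1, a FACIT of dense connective tissue, had 4.70, 7.15 and 7.05 CPM in TPN libraries and 14.6, 7.07 and 0.810 CPM in starvation libraries, against 13.8, 7.79 and 16.1 CPM in sham libraries, and was not called.

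The remaining tested members were called in no comparison by the quasi-likelihood test on all 9 libraries with TMM factors. Among them Col8a2, named after its values were seen, had 1.57, 0.358 and 4.24 CPM in TPN libraries and 2.47, 2.53 and 4.05 CPM in starvation libraries, against 2.45, 59.96 and 5.17 CPM in sham libraries. Its high value was in sham replicate 2 alone. The fold change in TPN against sham was -3.40 ± 1.16 with that library and -0.86 ± 0.75 without it. Col6a4, also named after its values were seen, was low in the same library, at 11.5 CPM, against 63.0 and 67.5 CPM in sham replicates 1 and 3. The 10 members not tested had 4 to 39 reads over the 9 libraries and at most 0.640 CPM in any library.

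Without sham replicate 2, 5 members were called in TPN against sham, all lower and all among the original 9, against a background of 4.0% of all genes lower. They were 3 fibrillar genes (Col3a1, Col1a1 and Col1a2), 0 type IV genes and 2 others (Col6a3 and Col14a1). Class medians were -1.22 for fibrillar, -0.14 for type IV and -0.79 for other collagens. In starvation against sham Col3a1 and Col14a1 were left, against 0.663% of all genes lower, with class medians of -0.82, -0.25 and -0.56. Leaving out starvation replicate 3 instead gave 11 members lower and 1 higher in TPN against sham, where 11.4% of all genes were lower and 9.88% higher. It gave 6 lower in starvation against sham, where 5.31% of all genes were lower. Leaving out both libraries gave 13 lower in TPN against sham, where 14.8% of all genes were lower, so the share called grew over all genes too. Leaving out TPN replicate 1, 2 or 3 gave 1, 2 and 1 calls in TPN against sham, Col3a1 in each and Col18a1 beside it without TPN replicate 2, where 0.891%, 0.836% and 0.865% of all genes were lower. With the smooth muscle marker level as a covariate, 8 of the 9 calls in TPN against sham ended, leaving Col3a1 (-1.95), and Col6a4 was called in addition (-1.58), where 2.11% of all genes were lower. The calls of Col1a1, Col1a2, Col5a2, Col6a1, Col6a2, Col6a3, Col14a1 and Col18a1 ended, at -1.80, -1.36, -1.32, -1.03, -1.20, -1.88, -0.85 and -1.02. In starvation against sham Col3a1 (-1.63) and Col18a1 (-1.07) stayed called and Col14a1 (-1.26) and Col1a1 (-1.47) did not, where 0.579% of all genes were lower. The fibrillar medians were -1.29 in TPN and -0.86 in starvation.

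**Figure D3:**
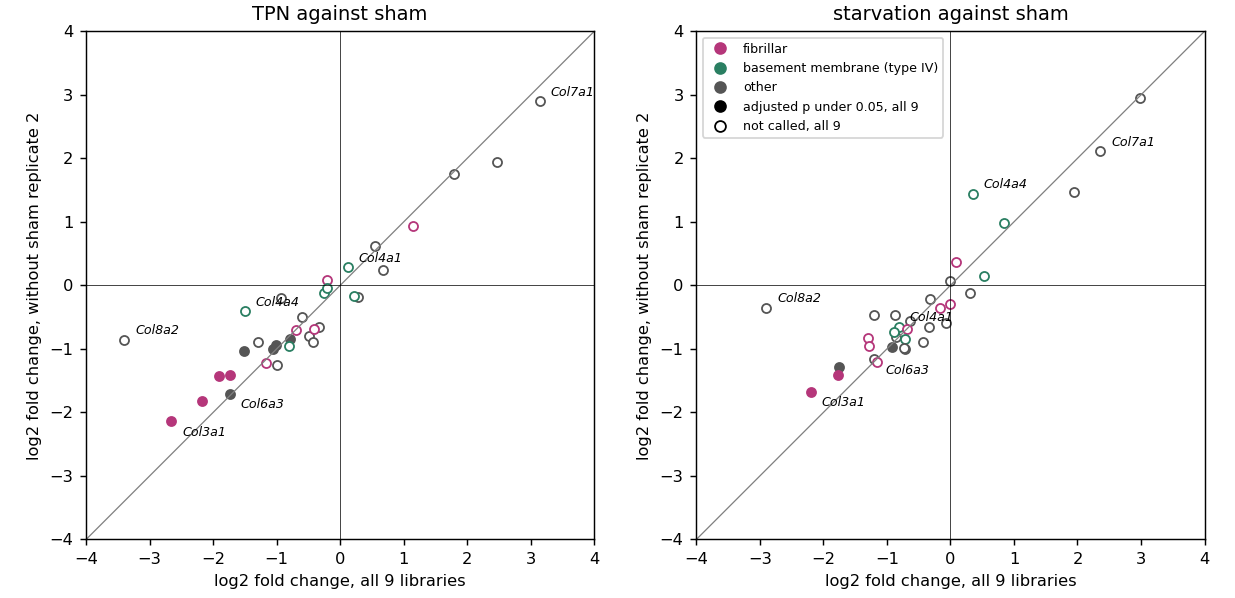
Log2 fold change of each tested collagen gene with all 9 libraries (horizontal axis) and without sham replicate 2 (vertical axis), TPN against sham on the left and starvation against sham on the right, with the diagonal marking equal values. Col8a2 lay far from the diagonal (-3.40 and -0.86 in TPN), and Col6a3 lay close to it (-1.74 and -1.71).

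**Figure D4:**
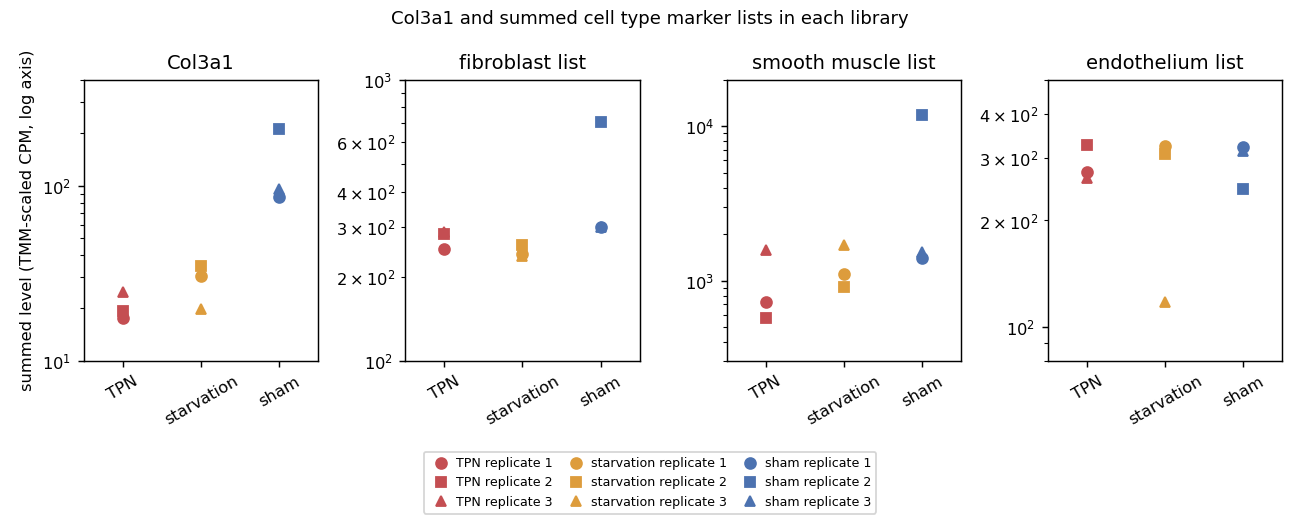
Level of Col3a1 and summed levels of 3 cell type marker lists in each library (TMM-scaled CPM, log axes that differ between panels), with TPN, starvation and sham from left to right and shapes for replicates. Sham replicates 1 and 3 exceeded all TPN and starvation libraries in Col3a1 (86.0 and 96.05 CPM). Their fibroblast sums (300.6 and 300 CPM) did too, with TPN libraries at 250.5 to 286.7 CPM and starvation libraries at 236.3 to 258.4 CPM. Of these sums, Fbln1 alone was 86.7 and 92.2 CPM in sham replicates 1 and 3. It was 53.0, 46.4 and 51.5 CPM in TPN libraries and 67.0, 90.7 and 112.6 CPM in starvation libraries. Without sham replicate 2, 6 of 11 tested fibroblast markers had a log2 fold change below 0 in TPN against sham, where 47.8% of all genes did. In that fit 1 marker was called lower (Fbln1) and 1 higher (Pdpn).

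Of 11 tested fibroblast markers 1 fell (Fbln1, a matrix glycoprotein named after its values were seen) and 0 rose in TPN against sham, with a median of -0.80. Of all genes 5.12% fell and 3.48% rose there. Without sham replicate 2 the median was -0.10, with Fbln1 lower and Pdpn, a glycoprotein of fibroblasts and lymphatic vessels, higher. In that fit 597 of 14939 genes were lower and 351 higher. The level of Pdgfra, a receptor marking fibroblasts, averaged 70.6 ± 11.1 CPM in TPN and 48.5 ± 25.8 CPM in starvation, against 65.2 ± 5.11 CPM in sham. Its starvation libraries had 63.8, 62.9 and 18.7 CPM. Dpt, another marker of that list, had 16.8, 20.5 and 40.0 CPM in TPN libraries, against 30.4, 245.6 and 28.7 CPM in sham libraries. In starvation libraries Dpt had 19.95, 15.2 and 16.55 CPM. With all libraries, 9 of 11 fibroblast markers were below 0 in TPN against sham, where 51.4% of all genes were. For 15 smooth muscle markers the median was -2.50 in TPN against sham and -0.83 without sham replicate 2, with 0 called in each. The 12 endothelial markers had a median of 0.01 in TPN and -0.45 in starvation against sham, with 0 called in each.

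Within-library ratios, which do not depend on library scaling, set the fibrillar class beside type IV. The summed per-length level of fibrillar genes was 0.803, 0.680 and 0.932 times that of type IV genes in TPN libraries and 1.79, 1.42 and 2.09 times in starvation libraries, against 2.58, 3.94 and 2.76 times in sham libraries. The 3 groups did not overlap, with TPN lowest and sham highest, also without sham replicate 2. Type IV genes made up 24.4 ± 1.06% of all collagen reads in TPN and 14.5 ± 2.19% in starvation, against 12.4 ± 0.222% in sham (SD, n = 3 each). Fibrillar genes made up 18.1 ± 2.47% in TPN and 22.3 ± 2.10% in starvation, against 33.9 ± 7.22% in sham. In CPM, the fibrillar sum averaged 86.3 ± 5.93 in TPN and 112.0 ± 48.5 in starvation, against 350.5 ± 146.3 in sham. The type IV sum averaged 117.7 ± 20.5 in TPN and 74.7 ± 35.9 in starvation, against 124.6 ± 22.9 in sham. By rank of the mean per-length level among members, Col3a1 was number 8 in TPN and 5 in starvation, against 3 in sham, and Col4a1 was number 3 in TPN and 7 in starvation, against 7 in sham.

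**Figure D5:**
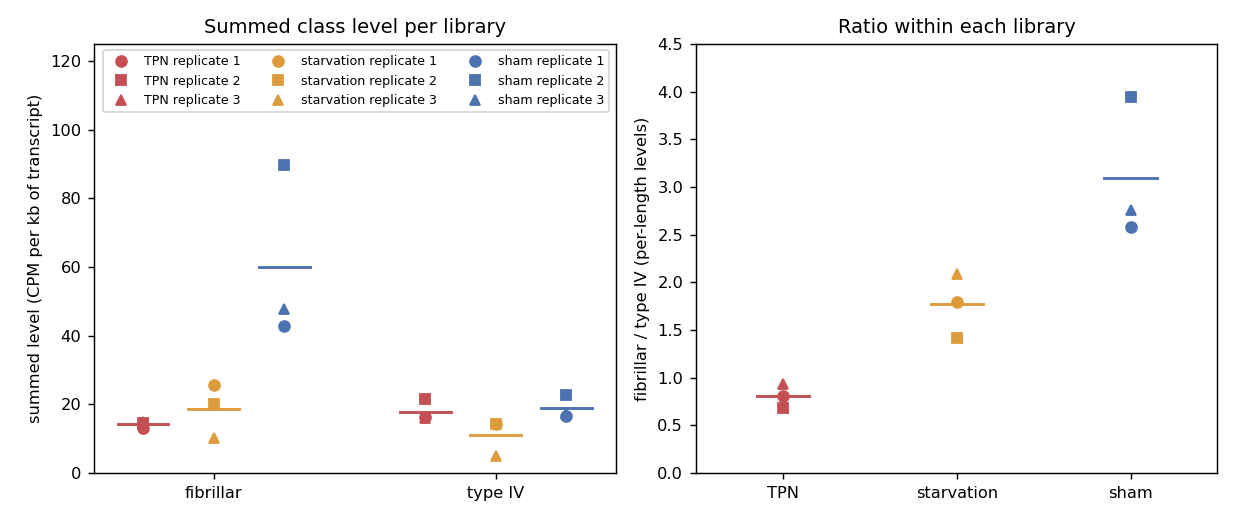
Left, summed level of fibrillar and type IV collagen genes in each library (CPM per kb of transcript); right, the ratio of these sums within each library, with TPN, starvation and sham from left to right, shapes for replicates and bars for group means. The ratio was 0.680 to 0.932 in TPN, 1.42 to 2.09 in starvation and 2.58 to 3.94 in sham.

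Ratios between chains of 1 molecule were taken in the same way. Per length, Col1a1 stood at 1.76, 2.28 and 2.02 times Col1a2 in TPN libraries and 2.03, 1.51 and 1.61 times in starvation libraries, against 2.33, 2.23 and 3.02 times in sham libraries, with groups that overlapped between TPN and sham. Col4a1 stood at 0.972, 1.02 and 1.02 times Col4a2 in TPN libraries and 0.846, 0.797 and 1.03 times in starvation libraries, against 0.809, 0.804 and 0.795 times in sham libraries. The TPN ratios exceeded the sham ratios in every library, a difference between chains that the single-gene tests did not address.

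In the fit to all 9 libraries Col3a1 had the largest called fall, Col6a3 a fall in another class and Col5a1 no call. The DNA upstream of these 3 collagen genes is shown because they differ in outcome. Each is the 250 bases before the annotated start, read from RefSeq on GRCm38.p6, at chr1:45311288-45311537 (plus strand) for Col3a1, chr1:90843972-90844221 (minus strand) for Col6a3 and chr2:27886175-27886424 (plus strand) for Col5a1, written 5′ to 3′. Capitals mark matches to TATAAA, the TATA box core, to GGGCGG, the GC box core bound by Sp1, or to CCAAT, on either strand.
Col3a1: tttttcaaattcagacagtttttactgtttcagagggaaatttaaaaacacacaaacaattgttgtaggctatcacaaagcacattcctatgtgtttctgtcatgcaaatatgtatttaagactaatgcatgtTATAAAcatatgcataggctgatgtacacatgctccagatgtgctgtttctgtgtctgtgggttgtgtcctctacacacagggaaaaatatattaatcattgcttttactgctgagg
Col6a3: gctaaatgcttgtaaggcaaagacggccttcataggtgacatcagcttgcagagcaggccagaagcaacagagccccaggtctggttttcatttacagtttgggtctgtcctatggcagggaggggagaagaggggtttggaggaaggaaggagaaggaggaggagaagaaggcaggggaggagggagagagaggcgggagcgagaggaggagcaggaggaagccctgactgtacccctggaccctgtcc
Col5a1: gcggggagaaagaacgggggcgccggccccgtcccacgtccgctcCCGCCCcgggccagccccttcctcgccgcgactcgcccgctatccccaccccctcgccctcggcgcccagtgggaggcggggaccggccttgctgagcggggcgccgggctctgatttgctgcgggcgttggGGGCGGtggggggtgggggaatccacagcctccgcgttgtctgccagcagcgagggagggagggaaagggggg
Col3a1 holds a TATAAA at position -117 from the annotated start, Col6a3 none of these letter strings, and Col5a1 a GGGCGG on each strand. Whether the Col3a1 string works as a TATA box at that distance was not tested. RefSeq windows of 250 bases before to 50 after a start were at hand for 35 of the 44 members. Of these members 22 held GGGCGG, 13 CCAAT and 5 TATAAA, against 35.7%, 37.4% and 13.6% of all 32851 promoter windows. The 35 members had 38 windows, and a member counted if any of its windows matched. The background counts single windows, so the units differ. A match is a string of letters and was not tested as a binding site.

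Collagen chains are hydroxylated and folded in the endoplasmic reticulum with the help of chaperones, cut to size outside the cell and cross-linked by lysyl oxidases. Of 32 tested synthesis and cross-linking genes, 4 fell and 0 rose in TPN against sham, with a list median of -0.28, against the 5.12% lower and 3.48% higher of all genes. P4hb, a subunit of prolyl hydroxylase and also a general disulfide isomerase, had 1392, 1426 and 1303 CPM in TPN libraries, against 3064, 3242 and 3433 CPM in sham libraries. Its log2 fold change was -1.24 ± 0.22 (quasi-likelihood adjusted p = 0.0120). Loxl1, a cross-linking enzyme (-2.67 ± 0.63), Sparc, a collagen-binding matrix protein (-1.70 ± 0.44), and Sec23a, a coat protein of secretory vesicles (-0.85 ± 0.22), fell too. Loxl1 and Sparc were highest in sham replicate 2, at 32.7 and 379 CPM. Without that library P4hb fell and 2 genes of the list rose, Lox and the prolyl hydroxylase gene P4ha1. Of all 14939 genes tested in that fit, 597 were lower and 351 higher.

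In starvation against sham 1 of the 32 fell, where 1.14% of all genes fell. This was Serpinh1, the collagen-specific chaperone HSP47, with 26.5, 26.2 and 15.6 CPM in starvation libraries, against 58.2, 157.1 and 62.6 CPM in sham libraries (-2.02 ± 0.39, quasi-likelihood adjusted p = 0.0299). Serpinh1 stayed called without sham replicate 2. Fitted to the starvation and sham libraries alone, 0 of 14220 genes were called lower, so this call ended there too. In TPN libraries Serpinh1 had 65.0, 81.1 and 86.3 CPM, each above sham replicates 1 and 3 and below sham replicate 2, and it was not called against sham (-0.26 ± 0.37). TPN against starvation gave 3 higher and 2 lower genes of the list, where 1.94% of all genes were higher and 3.90% lower. Serpinh1 (1.76 ± 0.38), the lysyl oxidase gene Lox (2.20 ± 0.39) and the lysyl hydroxylase gene Plod3 (1.01 ± 0.22) were higher in TPN. Lox had 10.05, 12.6 and 15.4 CPM in TPN libraries, against 3.03, 3.69 and 1.5 CPM in starvation libraries. P4hb (-1.19 ± 0.22) and the procollagen protease gene Bmp1 (-1.37 ± 0.30) were lower in TPN.

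The lists around the fibrils had 0 or 1 call each in TPN against sham, where 5.12% of all genes fell and 3.48% rose. Of 14 tested fibril-binding matrix genes 1 rose and 0 fell in TPN against sham although the list median was -1.26. The gene that rose was Thbs1, a matricellular glycoprotein, with 92.9, 105.1 and 89.1 CPM in TPN libraries, against 42.0, 46.7 and 47.0 CPM in sham libraries (1.08 ± 0.25, quasi-likelihood adjusted p = 0.0300). Thbs1 was also higher in TPN than in starvation (1.48 ± 0.25), and without sham replicate 2 the list had 0 calls in TPN against sham, with a median of -0.56. Of 15 basement membrane partners such as laminins and nidogens, 0 were called in any comparison. Their median was -0.41 in TPN against sham, with 10 of 15 below 0, where 51.4% of all genes were. In starvation against sham it was -0.32. Lamc1, a laminin chain found in most basement membranes, averaged 50.4 ± 6.49 CPM in TPN and 31.0 ± 15.8 CPM in starvation, against 47.8 ± 1.18 CPM in sham. The nidogen gene Nid1 had 26.0, 36.0 and 26.8 CPM in TPN libraries, against 38.7, 44.4 and 40.2 CPM in sham libraries. In starvation libraries Nid1 had 29.4, 28.2 and 9.26 CPM. Of 11 collagen receptor and uptake genes, 1 fell in TPN against sham, Pepd, a peptidase that releases proline (-1.07 ± 0.26), which was not called without sham replicate 2, and 0 were called in starvation. Of 17 TGF-beta pathway genes 1 rose in TPN, Smad3, a signal transducer (0.64 ± 0.14), and 0 were called in starvation, while Tgfb1 averaged 17.0 ± 1.57 CPM in TPN and 21.3 ± 10.5 CPM in starvation, against 17.9 ± 2.43 CPM in sham.

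Scaling mattered for the count. With library totals in place of TMM factors, the median of all genes in TPN against sham moved by 0.19, and 3 collagen members (Col14a1, Col1a1 and Col3a1) were lower and Col7a1 was higher, where 3.91% of all genes were lower and 4.44% higher. Of all genes called in TPN against sham 59.6% were lower with TMM factors, against 46.8% with library totals and 48.6% with upper quartile factors.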

How the data were processed

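Whole-tissue mRNA of 9 jejunal libraries was measured. The authors deposited raw read counts for each gene symbol. Tools listed in the submitters' processing notes are STAR 2.7.2e, featureCounts 2.0.0, cutadapt 2.9, DESeq2 1.32.0 and FastQC 0.11.8, and the builds are mm10 and GRCm38. Annotation release, strand setting and treatment of multi-mapping reads: not given in the sources used here. A further 9 count columns matched no labelled sample and were not used. Libraries of a group differed by more than sampling noise in every pair (chi-square per gene 7.74 to 118).

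In R 4.3.3, edgeR 4.0.16 kept 14668 genes by filterByExpr and removed 7200, scaled by TMM and fitted quasi-likelihood models with a mean per group to all 9 libraries (6 residual degrees of freedom). Benjamini-Hochberg adjustment ran over all tested genes, with a threshold of 0.05. The SE is the log2 fold change divided by the square root of F. Levels are CPM, and per-length levels use the transcript with the longest coding sequence in GENCODE M21 on GRCm38, which also gave positions. The script was tested on simulated counts.

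Values are given for members called in any comparison and a fixed list of main collagens, and other genes are marked where named. Members, classes and lists were chosen with earlier results of these data known. Alternatives were DESeq2 1.42.0, limma 3.58.1 voom, other scaling factors or filters, a smooth muscle covariate, a block for replicate number, fits to just the compared groups, stricter thresholds, and fits without each library or without both sham replicate 2 and starvation replicate 3.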

Additional observations from a re-analysis of the deposited data

How the results depend on the processing

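In TPN against sham, Col3a1 kept its direction and its call in all 22 alternatives, and in starvation against sham in 18 of 22. Collagen members called in TPN against sham, 9 in the report, all lower, numbered 4 with library totals (3 lower and 1 higher). They numbered 2 with the smooth muscle covariate and 1 at an adjusted p under 0.01, all lower. In starvation against sham, 4 in the report, all lower, they numbered 11 with DESeq2 (8 lower and 3 higher). They numbered 2 with library totals and 2 with the covariate, all lower, 0 with only the groups compared and 0 at 0.01. Without sham replicate 2 and starvation replicate 3 together they numbered 10 (8 lower and 2 higher), and the fibrillar median was -0.50. In TPN against starvation, 0 in the report, they numbered 1 with DESeq2 and 1 with only the groups compared, both lower. Without both libraries they numbered 10 (9 lower and 1 higher). Over all genes, DESeq2 called 2421, 1654 and 1791 in TPN against sham, starvation against sham and TPN against starvation, only the groups compared 2774, 2 and 545, without both libraries 4425, 2949 and 3205, the 0.01 threshold 258, 30 and 144, and a 2-fold minimum 662, 360 and 532. The covariate gave 465 and 213 in the comparisons against sham, and library totals 353 in starvation against sham.

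Whether replicate numbers pair animals is not stated in the labels. In deviations from group means, same-numbered libraries correlated at 0.12, -0.30 and -0.02 (TPN and sham), 0.38, -0.11 and -0.06 (starvation and sham) and -0.22, -0.12 and 0.06 (TPN and starvation). Different-numbered TPN and sham libraries reached 0.48 and -0.58. With 3 libraries per group these values are bound to each other by the group mean and cannot decide whether samples were paired. With the replicate number as a block, 6, 1 and 0 members and 556, 71 and 386 genes were called. Over fits that left out 1 library, members called ranged from 1 to 12, 0 to 6 and 0 to 2, and genes from 216 to 3182, 32 to 1739 and 124 to 1248. The medians of fibrillar, type IV and other collagens ranged from -1.63 to -0.80, -0.38 to -0.05 and -0.79 to -0.46 in TPN against sham, from -1.34 to -0.82, -0.36 to -0.09 and -0.84 to -0.24 in starvation against sham, and from -0.60 to -0.01, -0.573 to 0.005 and -0.31 to 0.10 in TPN against starvation.

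Over all 34 tested members, fits under other settings turned 89 signs, 27 in members named by the rule and 62 in others, and 0 of these were called in either fit. Among the others, with the covariate, Col8a1 was at 0.128 in TPN against sham and Col8a2 at 0.124 in starvation against sham, where the report's fit had -0.927 and -2.899. In TPN against sham Col27a1 was at 0.094 with the covariate and 0.123 without both libraries. In TPN against starvation Col5a1 was at 0.01 with DESeq2, 0.16 with voom, 0.006 with RLE factors, 0.043 with upper quartile factors, 0.03 with library totals, 0.034 with only the groups compared and 0.126 with the block, Col12a1 was at 0.283 with voom, and Col15a1 at -0.09 without both libraries. With 1 library left out, Col27a1 ranged from -0.402 to 0.079 and Col4a1 from -0.032 to 0.284 in TPN against sham, and Col27a1 from -0.189 to 0.369 in starvation against sham. The ranges in TPN against starvation were -0.368 to 0.546 for Col5a1, -0.734 to 0.661 for Col12a1, -0.072 to 0.506 for Col15a1, -0.856 to 0.268 for Col4a5, -0.094 to 0.287 for Col18a1, -0.633 to 1.251 for Col7a1 and -0.703 to 0.074 for Col1a1. The cause of these shifts was not tested. Depth limits the 10 untested members, Col17a1 and the type IV genes Col4a3, Col4a4, Col4a5 and Col4a6. Reads in sham were also few for Col7a1 (17), Col22a1 (7), Col11a2 (20) and Col25a1 (20).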
